A study of Mus musculus with 37 samples.

Results

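The MHC class II antigen presentation genes described here are 7 genes, Cd74, H2-Aa, H2-Ab1, H2-Eb1, H2-DMa, H2-DMb1 and Ciita, chosen by name from the 55487 genes of a table of RNA sequencing counts in mouse liver. The rule that picks them uses no measured value, but the genes were listed with earlier results of these data known. All 7 were in the table, and all 7 were among the 15564 genes that passed the filter on low counts. The 37 libraries came from mice labelled NOX4-/- (knockout, KO), which lack an NADPH oxidase that makes hydrogen peroxide, and from wild-type (WT) mice. Both genotypes had undergone partial hepatectomy, an operation in which most of the liver is resected and the remnant regrows, or a sham operation. By its title, the study asked whether loss of Nox4 speeds this regrowth. There were 5 KO sham livers and 3, 4, 4 and 3 KO livers at 6 h, 24 h, 48 h and 7 d after hepatectomy, against 5 WT sham livers and 3, 3, 4 and 3 WT livers at the same times. KO sham livers were taken at 24, 48, 48, 72 and 6 h after surgery (replicates 1 to 5) and WT sham livers at 7 d and at 48, 24, 48 and 6 h. All 6 h hepatectomy livers were male, and every other group held both sexes. The labels give no strain, age, litter or construction of the Nox4 allele, and replicate numbers follow the order of deposit.

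MHC class II molecules carry peptides from proteins taken up by a cell to its surface, where CD4+ T cells read them. H2-Aa and H2-Ab1 encode the alpha and beta chains of the I-A molecule, and H2-Eb1 the beta chain of I-E. Cd74 encodes the invariant chain, which fills the groove of new class II molecules until they reach the endosome. There the product of H2-DMa and H2-DMb1 removes the last fragment of the invariant chain and helps peptides bind. Ciita encodes the class II transactivator, a coactivator that does not bind DNA itself but docks on proteins assembled on the X and Y boxes of class II promoters. In liver, dendritic cells, B cells and macrophages are known for high class II levels, sinusoidal endothelial cells carry some, and hepatocytes carry little.

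The promoter boxes on which Ciita acts are shown because 6 of the 7 genes are its known targets. RefSeq promoter windows (GRCm38.p6, from 250 bases before to 50 bases after each gene's start) matched 4 of the 7 genes, H2-Aa, H2-Eb1, H2-DMa and H2-DMb1. Cd74, H2-Ab1 and Ciita are not shown. In the stretches below, written 5′ to 3′ on the gene's strand, capitals mark the X box core (letters GNAAC) and the Y box (letters TGATTGG). H2-Aa's stretch is chr17:34287857-34287912 on the minus strand, and H2-Eb1's is chr17:34305768-34305822 on the plus strand.
H2-Aa: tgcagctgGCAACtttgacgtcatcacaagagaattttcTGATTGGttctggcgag
H2-Eb1: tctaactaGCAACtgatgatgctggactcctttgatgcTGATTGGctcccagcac
The starts of the 2 motifs lie 31 bases apart in H2-Aa and 30 in H2-Eb1, and the Y box begins 50 and 61 bases before the gene's start. H2-DMb1's window holds the same pair at a spacing of 31 bases, in a stretch that the annotation also counts as an exon. Neither of H2-DMa's 2 windows holds TGATTGG on either strand, which says only that these letters are not in those windows. TGATTGG was present on one strand or the other in 7.82% of the 32851 RefSeq windows. The pair of boxes with their starts 26 to 34 bases apart, a range set after the sequences were seen, was present in 0.28% of them.

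Total counts ranged from 26232544 to 48827025 per library. Nox4 had 0 to 0.245 CPM (counts scaled to library size, by edgeR's TMM factors) in KO females against 0.778 to 3.36 CPM in WT females, and 0.325 to 4.98 CPM in KO males against 3.95 to 23.5 CPM in WT males, so the genotypes did not overlap among females and overlapped slightly among males. Which exons the allele lacks is not given, and reads from the rest of the gene do not check the label. A few libraries stood apart in ways that touch the class II genes. WT 48 h replicate 3 had a mean log2(CPM + 1) of 7.50 over 13 class I presentation genes, against 5.77 to 6.29 in the other WT 48 h livers. KO 48 h replicate 4 and KO 7 d replicate 2 had leukocyte scores (the same mean over 7 genes) of 3.68 and 4.32, the highest of their groups. WT sham replicate 5, a 6 h sham liver, had 2.26, against 3.08 to 3.42 in the other WT sham livers.

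The class II genes spanned a wide range of levels. On GRCm38, in GENCODE release M21, H2-DMa lies at chr17:34119541-34139101, H2-DMb1 at chr17:34153072-34160230, H2-Ab1 at chr17:34257689-34269419 and H2-Eb1 at chr17:34305867-34316674, all on the plus strand, and H2-Aa at chr17:34282744-34287823 on the minus strand. Ciita lies at chr16:10480059-10528418 and Cd74 at chr18:60803848-60812652, both on the plus strand. The counts cover whole genes, so exons and introns are not told apart. Per kilobase of annotated exon, the median level over the 37 libraries was 28.6 CPM per kb for Cd74, the highest of the 7, and 6.72, 5.43 and 4.50 CPM per kb for H2-Eb1, H2-Ab1 and H2-Aa. H2-DMb1 and H2-DMa followed at 1.28 and 0.834 CPM per kb. Ciita was lowest, at 0.0506 CPM per kb, with 1 to 156 counts in a library against 405 to 6955 for Cd74. The exon total pools all annotated transcripts, so the order within the I-A and I-E chains may shift with the isoform used. H2-Ea, which would encode the alpha chain of I-E and is annotated as a polymorphic pseudogene, had 0 counts in all 37 libraries.

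**Figure D1:**
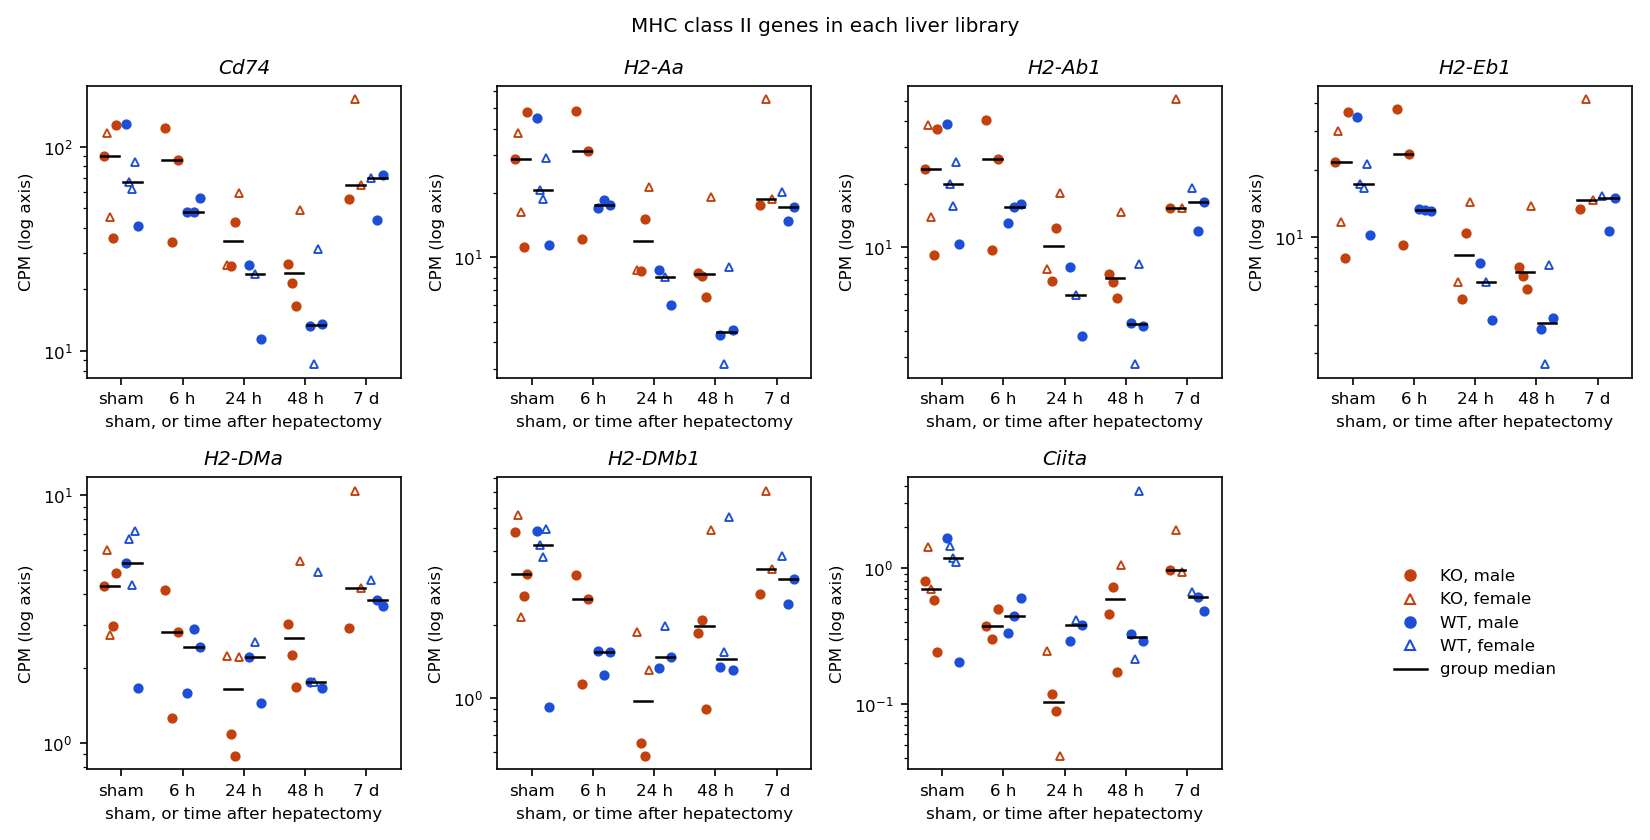
Level of each class II gene in each of the 37 liver libraries, in CPM on a log axis (y), by stage (x). Orange points are KO and blue points WT, filled circles are males, open triangles are females and black bars are group medians. The 4 WT 48 h livers lie below all 5 WT sham livers for Cd74, H2-Aa, H2-Ab1 and H2-Eb1, and 1 WT 48 h female stands high for H2-DMa, H2-DMb1 and Ciita.

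In KO livers, most class II genes were lower 24 h after hepatectomy than after sham. By edgeR's quasi-likelihood test with Benjamini-Hochberg adjustment over all genes (called below an adjusted p of 0.05), 5 of the 7 fell, against a background of 12% of all tested genes called lower in the same comparison. Those 5 were Cd74, H2-Eb1, H2-DMa, H2-DMb1 and Ciita. The median log2 change was -1.29 over the 7 and -0.01 over all genes tested. Less RNA per cell and fewer cells of a class II-bearing type cannot be told apart in whole liver, here or below.

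The DM genes H2-DMa and H2-DMb1, whose product edits the peptide cargo of class II molecules, showed the fall without overlap. H2-DMb1 had 1.86, 0.650, 0.577 and 1.3 CPM in KO 24 h livers against 4.81, 5.64, 2.14, 2.61 and 3.23 CPM in KO sham livers. Each KO 24 h liver lay below each KO sham liver, and the log2 change was -1.99 ± 0.44 (SE; adjusted p = 0.00159). H2-DMa had 2.25, 1.09, 0.888 and 2.22 CPM in KO 24 h livers against 4.30, 6.01, 2.74, 2.98 and 4.86 CPM in KO sham livers. These groups did not overlap either, with the female KO 24 h livers (replicates 1 and 4) above the males, and the log2 change was -1.57 ± 0.39 (adjusted p = 0.00357). H2-DMb2, a close paralog of H2-DMb1, also fell (log2 change -1.34 ± 0.48, adjusted p = 0.0379), and how reads were split between the pair is uncertain. Its groups overlapped, at 0.0888 to 0.457 CPM in KO 24 h livers against 0.348 to 0.858 CPM in KO sham livers. The KO 24 h values rest on 2 to 13 counts.

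Ciita, the coactivator on which the other 6 depend in professional antigen-presenting cells, reached its lowest levels in the same livers. It had 0.246, 0.118, 0.0888 and 0.0418 CPM in KO 24 h livers against 0.806, 1.44, 0.698, 0.580 and 0.243 CPM in KO sham livers. These rest on 7, 4, 2 and 1 counts in KO 24 h livers and on 7 to 47 counts in KO sham livers. All KO 24 h livers lay below all KO sham livers but replicate 5, the 6 h sham liver, which had about the level of the highest KO 24 h liver. The log2 change was -2.59 ± 0.70 (adjusted p = 0.00667). The calls for H2-DMa, H2-DMb1 and Ciita were kept when each of the 9 libraries was left out in turn, and in males alone Ciita's was lost (adjusted p = 0.0558).

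The invariant chain and the I-A and I-E chains showed smaller changes at 24 h, and their calls were not firm. Cd74 had 26.3, 26, 42.8 and 59.1 CPM in KO 24 h livers against 90.1, 116.7, 45.1, 35.7 and 127.0 CPM in KO sham livers. The groups overlapped, because KO sham replicates 3 and 4 lay within the KO 24 h range, and the log2 change was -1.16 ± 0.44 (adjusted p = 0.0465). H2-Eb1 gave -1.29 ± 0.44 (adjusted p = 0.0288). H2-Aa and H2-Ab1 gave -1.14 ± 0.45 (adjusted p = 0.0537) and -1.15 ± 0.46 (adjusted p = 0.0561), which missed the threshold at nearly the same size. Cd74's call was lost without any 1 of KO sham replicates 1, 2 and 5 and KO 24 h replicates 1 to 4 (adjusted p 0.0204 to 0.125 over the 9 libraries left out). H2-Eb1's was lost without KO sham replicate 2 or 5 or KO 24 h replicate 1 or 2 (adjusted p 0.0122 to 0.0997), and H2-Aa and H2-Ab1 were called without KO sham replicate 3 or 4 (lowest adjusted p 0.0251 and 0.0264). Without the 6 h sham livers, Cd74 and H2-Eb1 had adjusted p-values of 0.121 and 0.0885, and they were lost in males alone and with the compared groups alone as well.

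Markers of several cell types fell in the same KO 24 h livers. Against the 12% of all tested genes called lower, 8 of 12 Kupffer cell genes were lower and 1 higher, and so were 7 and 1 of 12 sinusoidal endothelial genes. Lower were also 6 of 12 T and NK cell genes (1 higher), 5 of 12 monocyte and macrophage genes, 5 of 11 B cell genes, 2 of 10 dendritic cell genes and 2 of 7 leukocyte genes, and 0 of 8 hepatocyte genes (1 higher). Clec4f, a Kupffer cell lectin, had a log2 change of -1.67 ± 0.38 (adjusted p = 0.00174), and Ighm, the immunoglobulin mu chain of B cells, -1.74 ± 0.49 (adjusted p = 0.00951). Clec10a, a lectin of dendritic cells and macrophages, gave -1.81 ± 0.43 (adjusted p = 0.00269). It rests on few counts, at 0.0444 to 0.246 CPM in KO 24 h livers against 0.276 to 0.521 CPM in KO sham livers. The summed level of the leukocyte list was 36.6 to 53.3 CPM in KO 24 h livers and 57.1 to 90.5 CPM in KO sham livers, and that of the Kupffer cell list was 285 to 594 CPM against 434 to 681 CPM. Within the Kupffer cell sum, Id3 went the other way from most of the list. Id3 had 41.2, 108, 170 and 111 CPM in KO 24 h livers against 31.2, 29.9, 41.5, 19.7 and 117.8 CPM in KO sham livers. The B cell list summed to 1.65 to 6.86 CPM in KO 24 h livers and 6.98 to 16.4 CPM in KO sham livers, and the dendritic cell list to 6.32 to 7.48 CPM against 8.13 to 11.1 CPM. No gene of these cell type lists was at 0 in every library of either group. The part of these cell types in the class II change was not tested.

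Of the genes around the class II pathway, 2 of 13 accessory genes fell at 24 h in KO livers, H2-DMb2 and Cd86, and 1 rose, the cathepsin Ctsl. Of 19 regulators, 3 rose and 2 fell. Rfxank, a subunit of the factor that binds the X box, rose (log2 change 2.11 ± 0.30, adjusted p = 3e-05), while Irf1, an interferon-induced activator of Ciita, fell (-1.48 ± 0.44, adjusted p = 0.0124). For Irf1, KO 24 h replicate 1 lay within the KO sham range, at 16.9 CPM against 16.2 to 31.5 CPM. The same liver lay within the KO sham range for Ctsl, at 561 CPM against 515 to 654 CPM. The class I presentation list of 13 genes had 1 higher and 2 lower.

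At 48 h in KO livers the invariant chain was lower than after sham, and no other class II gene passed. Cd74 had 26.8, 21.6, 16.6 and 48.9 CPM in KO 48 h livers, so that replicate 4, a female, overlapped the KO sham livers given above. Its log2 change was -1.55 ± 0.44 (adjusted p = 0.0485), and it was the 1 gene of the 7 called, with 0.7% of all tested genes called lower. H2-Aa, H2-Ab1 and H2-Eb1 gave -1.45, -1.49 and -1.36 with adjusted p-values of 0.0783, 0.0765 and 0.0969. H2-DMa, H2-DMb1 and Ciita gave -0.43 ± 0.37, -0.65 ± 0.41 and -0.19 ± 0.59, with adjusted p-values of 0.715, 0.555 and 0.951. Cd74's call was lost without any 1 of KO sham replicates 1, 2 and 5 and KO 48 h replicates 1 to 3, and the adjusted p ran from 0.0229 to 0.183 over the 9 libraries left out. None of the lists of class II accessory genes, regulators, leukocytes, Kupffer cells, B cells, dendritic cells, T and NK cells or sinusoidal endothelial cells had a gene called in this comparison.

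In WT livers, the invariant chain and the I-A and I-E chains stood at 0.210 to 0.229 of the sham level at 48 h, the largest change of these 4 genes in any of the stage comparisons. The 4 fell and the 3 others did not pass, against 3.62% of all tested genes called lower. Cd74 had 13.2, 8.60, 31.7 and 13.5 CPM in WT 48 h livers against 129.4, 67.2, 62.0, 84.3 and 41.0 CPM in WT sham livers. The groups did not overlap, although replicate 3 at 48 h came within reach of the 6 h sham liver, and the log2 change was -2.21 ± 0.46 (adjusted p = 0.00308). H2-Aa had 4.34, 3.15, 9.04 and 4.56 CPM in WT 48 h livers against 44.7, 20.8, 18.7, 29.4 and 11.5 CPM in WT sham livers. It also separated the groups (log2 change -2.25 ± 0.46, fold 0.210, adjusted p = 0.00303). H2-Ab1 and H2-Eb1 gave -2.17 ± 0.47 (adjusted p = 0.00439) and -2.13 ± 0.46 (adjusted p = 0.00399), with no overlap between WT 48 h and WT sham livers. All 4 calls were kept with each of the 9 libraries left out, with a highest adjusted p of 0.0244, while in males alone H2-Ab1 and H2-Eb1 missed the threshold (adjusted p = 0.0666 and 0.0722).

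The DM genes and Ciita did not pass the test at 48 h in WT livers, and their values depended on single libraries. Whether they differed from the other 4 genes was not tested. H2-DMa had 1.76, 1.76, 4.92 and 1.67 CPM in WT 48 h livers against 5.35, 6.67, 4.33, 7.16 and 1.66 CPM in WT sham livers. WT 48 h replicate 3 lay among the sham livers and the 6 h sham liver lay at the level of the other 48 h livers, and the log2 change was -0.94 ± 0.37 (adjusted p = 0.114). H2-DMb1 gave -0.66 ± 0.41 (adjusted p = 0.356), with 1.34, 1.55, 5.52 and 1.3 CPM in WT 48 h livers against 4.86, 4.25, 3.78, 4.95 and 0.916 CPM in WT sham livers. Ciita had 0.327, 0.216, 3.71 and 0.293 CPM in WT 48 h livers against 1.68, 1.45, 1.19, 1.12 and 0.204 CPM in WT sham livers. Its highest value of the whole series was thus in 1 of the WT 48 h livers, and its log2 change was -0.18 ± 0.57 (adjusted p = 0.890). Without WT 48 h replicate 3, Ciita fell (log2 change -1.84, adjusted p = 0.0407), and H2-DMa and H2-DMb1 gave -1.31 (adjusted p = 0.0587) and -1.22 (adjusted p = 0.108). Over the 9 libraries left out, the adjusted p ran from 0.0532 to 0.303 for H2-DMa and from 0.108 to 0.784 for H2-DMb1.

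Cell type markers were lower in the same WT 48 h livers as well. Against the 3.62% of all tested genes called lower, these were 3 of 12 sinusoidal endothelial genes, 2 of 11 B cell genes, 2 of 10 dendritic cell genes, 2 of 12 monocyte and macrophage genes (1 higher), 1 of 12 T and NK cell genes, 2 of 8 hepatocyte genes, and 0 of 12 Kupffer cell genes (1 higher) and 0 of 7 leukocyte genes. The median log2 changes of the T and NK cell, B cell and sinusoidal endothelial lists were -1.57, -1.31 and -0.95 in WT 48 h livers. Over all genes tested the median was 0.07. In KO 24 h livers the same lists had medians of -1.58, -1.45 and -1.21, beside -0.01 over all genes. The Kupffer cell, leukocyte, dendritic cell, monocyte and macrophage, and hepatocyte lists had KO 24 h medians of -1.02, -0.55, -0.89, -0.95 and -0.04. Their medians in WT 48 h livers were -0.49, -0.36, -0.36, -0.29 and -0.19. Ccr7, a chemokine receptor of migrating dendritic cells, had a log2 change of -2.25 ± 0.61 (adjusted p = 0.0189), and Itgax, the integrin CD11c, -1.73 ± 0.53 (adjusted p = 0.0356). Ighm gave -2.49 ± 0.51 (adjusted p = 0.00283). The B cell list summed to 2.0 to 8.72 CPM in WT 48 h livers and 10.6 to 28.9 CPM in WT sham livers, and the dendritic cell list to 6.66 to 11.5 CPM against 7.19 to 17.5 CPM. Ighm alone had 0.784 to 4.10 CPM in WT 48 h livers and 4.35 to 22.1 CPM in WT sham livers. The dendritic cell sum was again mostly Fscn1 and Zbtb46. The leukocyte list summed to 35.4 to 73.8 CPM in WT 48 h livers and 33.6 to 105.9 CPM in WT sham livers. No gene of these lists was at 0 in every library of either group, and their part in the class II change was not tested. Of 13 class II accessory genes, 3 fell: Cd83, which stabilises class II molecules at the surface (log2 change -1.99 ± 0.46, adjusted p = 0.00678), the cathepsin Ctsb (-0.81 ± 0.21, adjusted p = 0.0136) and H2-DMb2 (-1.76 ± 0.47, adjusted p = 0.0176). H2-DMb2 had 2 to 18 counts in WT 48 h livers, and its range there overlapped that of the WT sham livers. Of 13 class I presentation genes, 1 fell, the class I heavy chain H2-K1 (-1.0 ± 0.25, adjusted p = 0.0110). Of 19 regulators, 0 fell and 1 rose, the interferon gamma receptor chain Ifngr1.

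At 24 h in WT livers the 7 genes lay lower without passing the adjusted test. Cd74 had 26.3, 23.9 and 11.4 CPM in WT 24 h livers, below each of the 5 WT sham livers (log2 change -1.84 ± 0.50, adjusted p = 0.0657). H2-Aa, H2-Ab1 and H2-Eb1 gave -1.65, -1.82 and -1.67 with adjusted p-values of 0.10, 0.0806 and 0.0929. H2-DMa, H2-DMb1 and Ciita gave -1.04, -1.0 and -1.39, with adjusted p-values of 0.218 to 0.320. All 7 had an unadjusted p under 0.05, in a comparison that called 0.925% of all tested genes in either direction. DESeq2 called 4 of the 7.

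At 6 h and 7 d no class II gene passed in either genotype. At 6 h the log2 changes ran from -0.51 for Ciita to 0.23 for H2-Eb1 in KO livers and from -0.84 for H2-DMb1 to -0.32 for H2-Aa in WT livers, and 0 of the 7 had an unadjusted p under 0.05 in either genotype. The same comparisons called 6.62% of all tested genes in KO livers and 7.86% in WT livers, in either direction. At 7 d the log2 changes ran from -0.08 for H2-DMb1 to 0.57 for Ciita in KO livers and from -0.69 for Ciita to -0.03 for H2-DMb1 in WT livers. No gene of the 15564 was called at 7 d in either genotype (0% each). Cd74 had 55.4, 170.7 and 65.3 CPM in KO 7 d livers and 70.4, 43.9 and 73.1 CPM in WT 7 d livers, which is within the spread of the sham livers. The exception was KO 7 d replicate 2, which had the highest Cd74, H2-Aa, H2-Ab1, H2-Eb1, H2-DMa and H2-DMb1 levels of all 37 libraries.

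**Figure D2:**
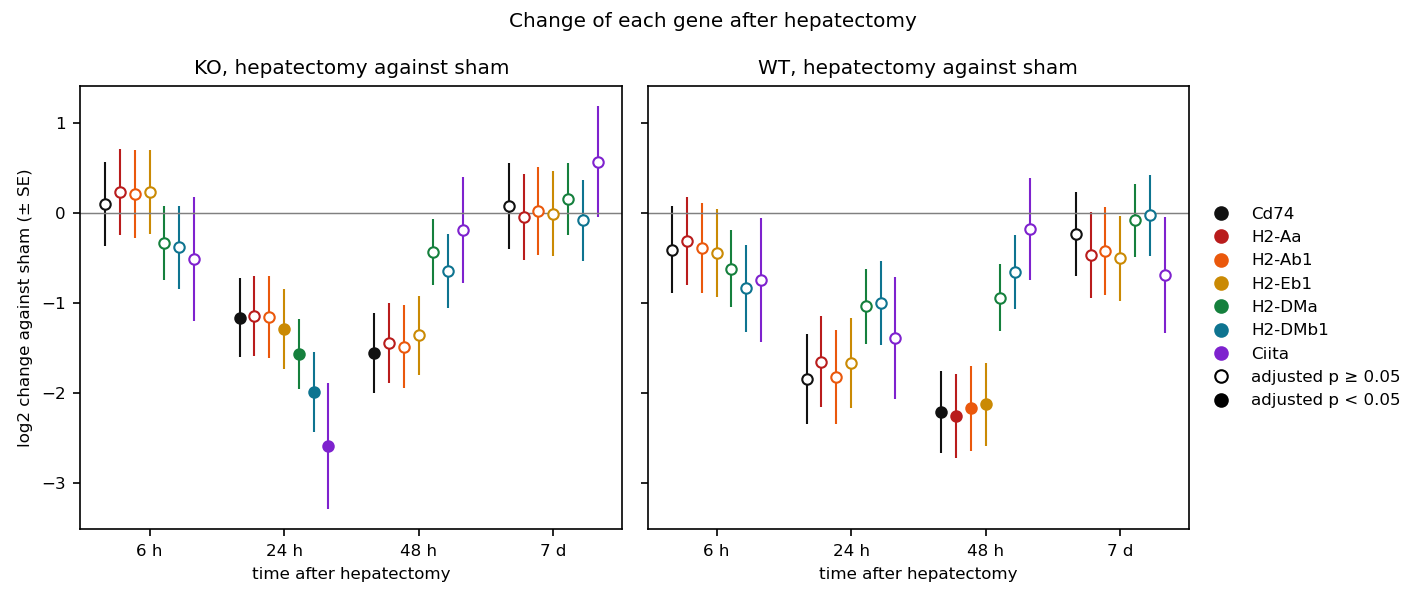
Log2 change of each class II gene against the sham livers of its genotype (y, with SE) at each time after hepatectomy (x), KO on the left and WT on the right. Filled points have an adjusted p under 0.05. In KO livers 5 genes are filled at 24 h and Cd74 at 48 h, and in WT livers Cd74, H2-Aa, H2-Ab1 and H2-Eb1 are filled at 48 h.

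KO and WT livers were then compared directly. No class II gene differed between the genotypes at any stage after adjustment. At sham the log2 changes of KO over WT ran from -0.48 ± 0.54 (Ciita) to 0.24 ± 0.41 (H2-Aa), with 0.276% of all tested genes called in either direction. At 6 h, where 0.116% of genes were called, the invariant chain and the I-A and I-E chains gave 0.68 to 0.83, each within 2 SE of 0. At 7 d, where 0.045% of genes were called, they gave 0.48 to 0.66.

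At 24 h 18.6% of all tested genes were called between the genotypes, and 0 of the 7. The 2891 genes behind that share became 0 in a fit of the KO and WT 24 h livers alone, and 998 (without KO 24 h replicate 4) to 5452 (without KO 24 h replicate 1) with 1 library left out. Cd74, H2-Aa, H2-Ab1 and H2-Eb1 gave 0.85, 0.75, 0.85 and 0.53, while H2-DMa, H2-DMb1 and Ciita gave -0.57 ± 0.43, -0.78 ± 0.48 and -1.69 ± 0.77. Ciita had 0.246, 0.118, 0.0888 and 0.0418 CPM in KO 24 h livers against 0.291, 0.417 and 0.382 CPM in WT 24 h livers. Each KO liver was below each WT liver, on at most 7 counts in a KO library, and the adjusted p was 0.117 (unadjusted p = 0.0362). The 95% interval of Ciita's log2 change ran from -3.26 to -0.12.

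At 48 h the class II chains were higher in KO livers by a margin that did not pass. H2-Aa had 8.43, 8.21, 6.51 and 19.3 CPM in KO 48 h livers against 4.34, 3.15, 9.04 and 4.56 CPM in WT 48 h livers. WT replicate 3 alone overlapped the KO livers, and the log2 change was 1.05 ± 0.46 (unadjusted p = 0.0309, adjusted p = 0.377, with 0.341% of all tested genes called). Cd74, H2-Ab1 and H2-Eb1 gave 0.83, 0.87 and 0.92, with adjusted p-values of 0.512, 0.507 and 0.455.

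Averaged over the 5 stages with equal weight, the 4 genes of the invariant chain and the I-A and I-E chains gave log2 changes of 0.60 ± 0.22 (Cd74, adjusted p = 0.120), 0.70 ± 0.22 (H2-Aa, 0.0746), 0.66 ± 0.22 (H2-Ab1, 0.0998) and 0.61 ± 0.22 (H2-Eb1, 0.114). Their unadjusted p-values were 0.00314 to 0.00897, and 2.72% of all tested genes were called. H2-DMa, H2-DMb1 and Ciita gave 0.06 ± 0.18, 0.09 ± 0.21 and -0.43 ± 0.30. Without KO 24 h replicate 1 all 4 were called, with adjusted p-values of 0.0267 to 0.05, without KO 6 h replicate 2 H2-Aa and H2-Ab1 were, and without WT sham replicate 1 H2-Aa was. Of the marker lists in this average, T and NK cells had 1 of 12 genes higher, Gzmb, a granule protease of cytotoxic cells (log2 change 1.13 ± 0.30, adjusted p = 0.0371), with a list median of 0.27. Stellate cells had 1 of 9 genes higher and 1 lower, and the lists of leukocytes, dendritic cells, B cells, Kupffer cells, monocytes and macrophages, neutrophils, sinusoidal endothelial cells, cholangiocytes and hepatocytes had 0 genes called. The part of these cells in the class II values was not tested.

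Whether the response to hepatectomy itself differed between the genotypes was tested by the interaction of genotype and stage. The interaction called 0% of all genes at 6 h, 48 h and 7 d and 8.47% at 24 h, and 0 of the 7 class II genes at any stage by edgeR, with 0 of the 7 at an unadjusted p under 0.05. The share at 24 h rested on single libraries, since its 1319 genes became 0 without WT 24 h replicate 3 and 3659 without KO 24 h replicate 1. At 24 h the values were 0.38 to 0.68 for Cd74, H2-Aa, H2-Ab1 and H2-Eb1, and -0.54 ± 0.56, -0.99 ± 0.63 and -1.20 ± 0.94 for H2-DMa, H2-DMb1 and Ciita. The calls in KO livers at 24 h and in WT livers at 48 h are therefore not shown to differ by genotype. The 95% intervals at 48 h ran from -0.44 to 2.06 for H2-Aa and from -1.89 to 1.87 for Ciita.

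**Figure D3:**
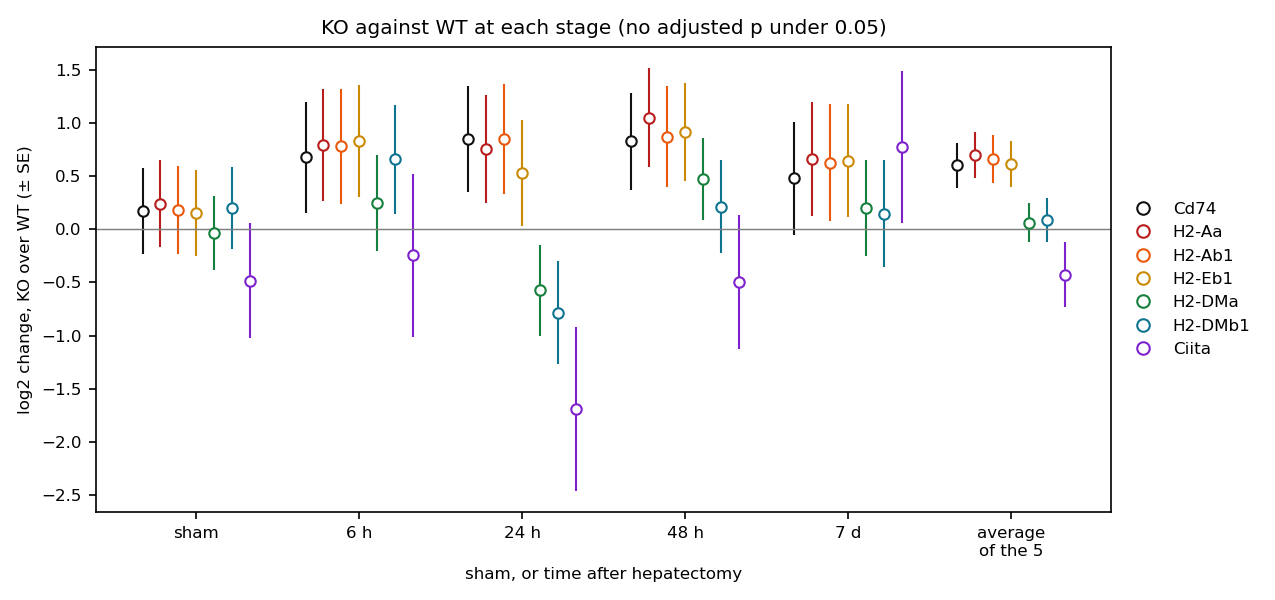
Log2 change of KO over WT for each class II gene (y, with SE) at each stage and averaged over the 5 stages (x). Open points mark an adjusted p of 0.05 or more, which holds for all. Cd74, H2-Aa, H2-Ab1 and H2-Eb1 lie above 0 at each stage, and Ciita is lowest at 24 h, at -1.69.

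Of the 7 genes, the DM pair differed between the sexes. Males were lower than females for H2-DMa (log2 change -0.78 ± 0.21, adjusted p = 0.0261) and H2-DMb1 (-0.86 ± 0.23, adjusted p = 0.0262), with group as a term, and 1.97% of all tested genes were called lower in males. H2-DMa had a median of 2.86 CPM in 12 KO males against 4.21 CPM in 7 KO females, and of 2.22 CPM in 11 WT males against 4.55 CPM in 7 WT females. The ranges overlapped in both genotypes, at 0.888 to 4.86 CPM in KO males against 2.22 to 10.4 CPM in KO females. Ciita gave -0.91 ± 0.34 (adjusted p = 0.155), and Cd74, H2-Aa, H2-Ab1 and H2-Eb1 gave -0.28 to -0.36 with adjusted p-values of 0.514 to 0.644. H2-DMa's call was lost without WT sham replicate 5, KO sham replicate 2, KO 7 d replicate 1 or KO 48 h replicate 4 (adjusted p 0.00695 to 0.0719 over 37 libraries left out), and H2-DMb1's without WT 48 h replicate 3, KO sham replicate 2 or KO 48 h replicate 4 (0.00539 to 0.0864), or without the 6 h sham livers of both genotypes (0.0564). Markers of several leukocyte types were lower in males too, with 4 of 12 Kupffer cell genes, 3 of 7 leukocyte genes, 2 of 12 T and NK cell genes, 1 of 10 dendritic cell genes and 1 of 12 monocyte and macrophage genes called, and 0 of 11 B cell genes. Marco, a scavenger receptor of macrophages, gave -1.47 ± 0.33 (adjusted p = 0.00587), and Spi1, a transcription factor of myeloid and B cells, -0.55 ± 0.14 (adjusted p = 0.0208). The part of these cells in the sex difference was not tested.

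The 7 genes fell into tighter and looser company across libraries. The values that follow are correlations of log2(CPM + 1) over the 37 libraries after the group and sex means were taken out. They are descriptions with no test, since libraries share groups and each library's total scales every gene in it. Cd74, H2-Aa, H2-Ab1 and H2-Eb1 had pairwise Pearson's r of 0.967 to 0.990. H2-DMa and H2-DMb1 had r = 0.876 (Spearman's rho 0.819, and r = 0.830 without the 2 libraries farthest from the median of H2-DMa). H2-DMb1 and Ciita had r = 0.764 (rho 0.716, and 0.761 without 2 libraries). H2-Aa and Ciita had r = 0.445 (rho 0.399, and 0.387 without 2 libraries), lower than with either DM gene (H2-DMa and Ciita had r = 0.602). Median counts per library were 359 to 1413 for Cd74, H2-Aa, H2-Ab1 and H2-Eb1. They were 99 and 79 for H2-DMa and H2-DMb1 and 16 for Ciita. Fewer counts bring more counting noise, and its part in these r values was not tested.

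Ratios between the genes were also taken in single livers. The CPM ratio of Cd74 to H2-Aa had group medians of 2.59 to 3.15 in KO groups and 2.81 to 3.46 in WT groups. H2-DMa as a percentage of H2-Aa varied more. It was 36.0, 27.7, 25.9 and 28.2% in KO 48 h livers against 14.8, 15.7, 16.9, 26.5 and 10.2% in KO sham livers. All but KO sham replicate 4 lay below the KO 48 h livers. It was 40.6, 55.9, 54.5 and 36.6% in WT 48 h livers against 12.0, 32.1, 23.1, 24.4 and 14.5% in WT sham livers, with no overlap. At 24 h it was 25.8, 12.7, 5.87 and 10.4% in KO livers against 25.5, 31.7 and 24.2% in WT livers, and at 48 h each KO liver lay below each WT liver. These ratios were not tested.

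**Figure D4:**
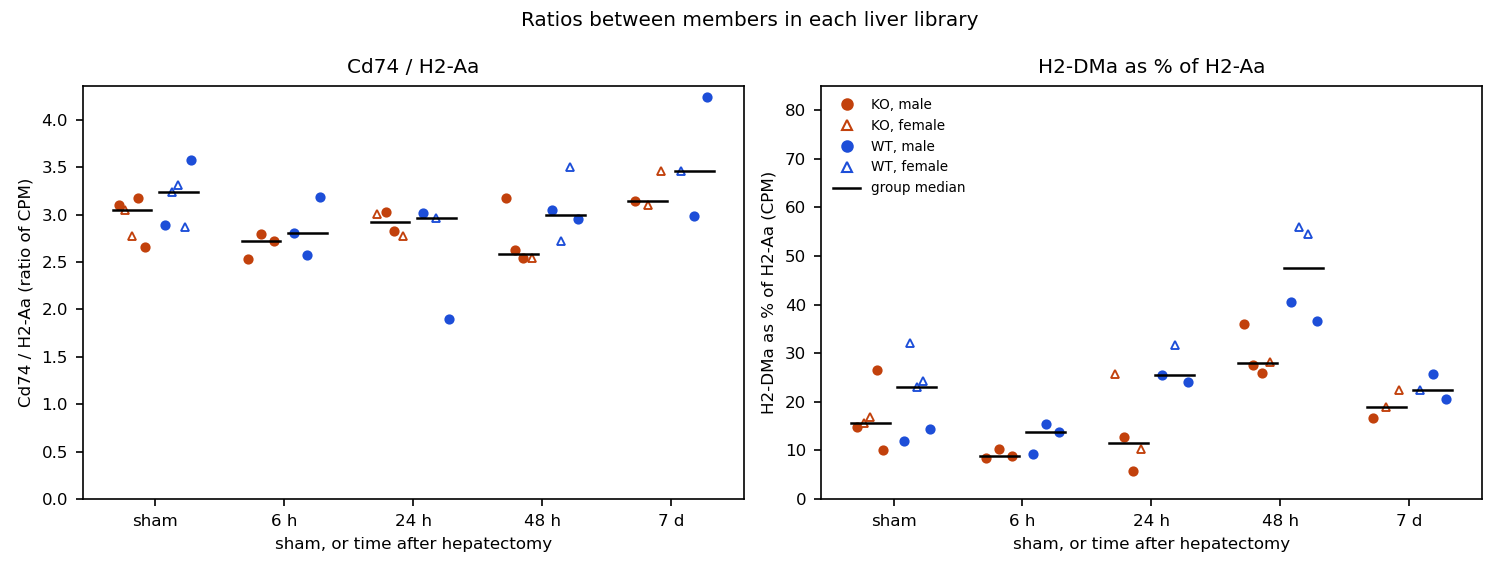
Ratio of Cd74 to H2-Aa (left) and H2-DMa as a percentage of H2-Aa (right), both from CPM (y), in each library by stage (x), with orange points for KO, blue for WT, open triangles for females and black bars for group medians. The Cd74 ratio stays near 3 in most livers, while H2-DMa ranges from 5.87% of H2-Aa in a KO 24 h liver to 55.9% in a WT 48 h liver.

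The genes whose levels most resembled the mean of Cd74, H2-Aa, H2-Ab1 and H2-Eb1 over the 37 libraries were Cd6 (r = 0.811), Aspg, Trbc2, Thrsp, Macrod1, Cpq, Fahd2a, Ndrg2, Colec11 and 4732419C18Rik, the last at r = 0.754. After the group and sex means were taken out they were Cd6 (r = 0.777), Itgb7, Bcl2a1a, Cd3e, Cxcl9, Itgax, Apobec3, Art2a, Il2rb and Cx3cl1 (r = 0.658). Cd6, Trbc2 and Cd3e are T cell genes and Itgax a dendritic cell and macrophage gene, and the other genes were not assigned to a cell type. Cd6, Trbc2, Cd3e and Itgax had medians of 0.164, 0.433, 0.343 and 0.381 CPM. Bcl2a1a, Art2a and Cx3cl1 had 0.106, 0.030 and 0.532 CPM, so the values of these genes rest on few counts. Aspg, Thrsp and Ndrg2 were far more abundant, with medians of 120.7, 688 and 809 CPM. Their r was 0.439, 0.411 and 0.538 after the group and sex means were taken out.

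Among marker lists, the leukocyte score went most closely with the DM genes. After group and sex means were taken out, its r was 0.83 with H2-DMb1 (rho 0.761, and 0.787 without 2 libraries), 0.747 with H2-DMa, 0.671 with Ciita and 0.590 with the mean of the 4 chains. The monocyte and macrophage score had r = 0.709 with H2-DMb1 and 0.71 with Ciita, against 0.291 with the 4-gene mean. The sinusoidal endothelial score had r = 0.0011 with the 4-gene mean. Ciita's r of 0.663 with class I presentation and 0.591 with the regulators rested on 2 libraries, without which it was 0.209 and 0.178. These correlations are descriptions as well.

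**Figure D5:**
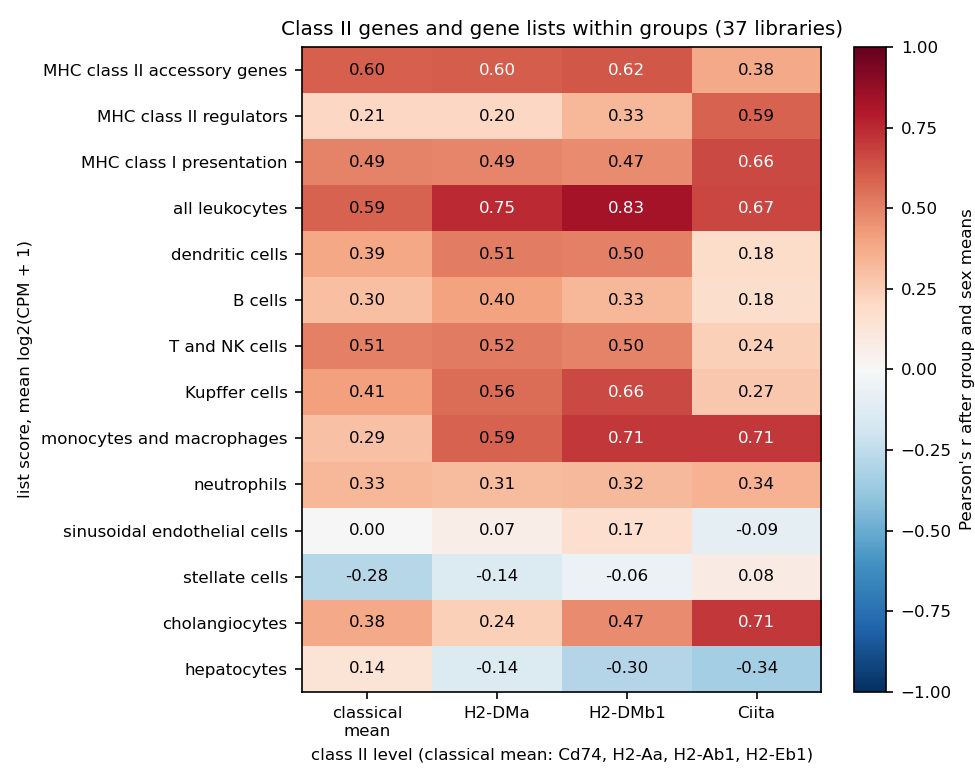
Pearson's r over 37 libraries, after group and sex means, between the score of each gene list (rows, mean log2(CPM + 1)) and 4 class II levels (columns), where the classical mean is that of Cd74, H2-Aa, H2-Ab1 and H2-Eb1. Red is positive and blue negative, and the leukocyte row reaches 0.83 for H2-DMb1.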

How the data were processed

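RNA sequencing was deposited as 1 table of 55487 genes in 37 mouse liver libraries. Its whole numbers were taken to be rounded expected counts as deposited, since the submitters' processing notes name STAR 2.5.3a, RSEM 1.3.0 and GRCm38 without giving their roles. The annotation release and strand setting are not given in the sources used here, and per the labels' protocols the libraries were stranded mRNA libraries from total RNA. Close paralogs and overlapping genes are therefore uncertain.

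Genes passing edgeR's filterByExpr (15564) entered a single robust quasi-likelihood fit with TMM scaling (edgeR 4.0.16, R 4.3.3), in which the 37 libraries had a term for each of the 10 groups plus sex. P-values were adjusted by the Benjamini-Hochberg method across every gene in the fit and called below 0.05. SE is the log2 change over the square root of the F statistic, and intervals cover 95%. Sham livers of mixed times were pooled within a genotype. The labels name no animals, so p-values measure the spread between these libraries, which may be technical in part. The table's identifiers matched GENCODE release M21 for 55141 genes, without version numbers. Alternatives were DESeq2 1.42.0, RLE scaling, no filter beyond 1 count, no sex term, the compared groups alone, male libraries alone, no 6 h sham livers, and each library left out.

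The 7 genes and the gene lists were chosen with earlier results of these data known. The 7 are named in every comparison. From a list, at most the 3 genes with the smallest p are named. Genes most like the class II chains are the 10 with the highest Pearson's r. List scores are means of log2(CPM + 1) over tested genes. Among the listed genes that did not pass the filter were H2-Eb2, H2-Ea, Ifng, Il4, Xcr1, Cd209a, Cr2, Cd8b1, Ncr1 and Ly6g. Some list members are counted but not reported here by name. Figures were drawn with Python 3.11.15 and matplotlib 3.10.9.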

Additional observations from a re-analysis of the deposited data

Results flagged for a closer look

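Single livers stood far from the rest of their group in 5 of the 35 sets of values examined. There was 1 set for each gene and group of 4 or 5 livers. Chance gives about 1 in 20 for independent sets of normally distributed values. The genes here rise and fall together in the same livers and CPM need not be normal. That rate is therefore only a rough guide. WT 48 h replicate 3 was far above the other WT 48 h livers for H2-DMa, at 4.92 CPM, for H2-DMb1, at 5.52 CPM, and for Ciita, at 3.71 CPM. KO 48 h replicate 4, the only female of its group, was far above the other KO 48 h livers for H2-Aa, at 19.3 CPM. WT sham replicate 5, the 6 h sham liver, was far below the other WT sham livers for H2-DMb1, at 0.916 CPM.

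At 7 d, Ciita lay above the KO sham mean in all 3 KO livers and below the WT sham mean in all 3 WT livers, a difference between the genotypes of 1.55 on the log2 scale. That pattern of sides carries no test of its own. The interaction in the edgeR fit, which does test the difference, gave a log2 value of 1.26 ± 0.90 (SE) with an adjusted p of 1.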

How the results depend on the processing

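No paired analysis was made because the labels link no liver to another, and replicate numbers follow the order of deposit. Which class II genes were called depended most on the settings in KO livers. At 24 h against sham, 5 were called, against 3 without the 6 h sham livers, 3 with the compared groups alone, 2 in males alone and 3 to 7 with 1 library left out. At 48 h the count of 1 became 4 without the count filter and with DESeq2, 0 with the compared groups alone, without the 6 h sham livers, in males alone or without the sex term, and 0 to 4 with 1 library left out. In WT livers the count at 24 h became 4 without the filter and with DESeq2, and the 4 at 48 h became 2 in males alone. Between KO and WT, the filter's removal called 1 gene at 48 h and 4 in the average, for which DESeq2 called 1 and leaving out 1 library 0 to 4. The 2 genes lower in males became 1 without the 6 h sham livers and 0 to 2 with 1 library left out.

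Directions turned only for changes that had not passed the test. For WT 48 h against sham, Ciita's log2 change was 0.0033 without the sex term and -1.84 to 0.33 with 1 library left out, and for KO 48 h it was -0.46 to 0.039. For KO against WT at 48 h, Ciita gave 0.56 in males and -0.79 to 1.07, and H2-DMb1 -0.059 to 0.73, with 1 library left out. In the average, H2-DMa gave -0.081 in males, -0.0014 without the 6 h sham livers and -0.060 to 0.13 with 1 library left out, and H2-DMb1 gave -0.012 in males. The causes were not tested. In the other 12 comparisons, 133 of 1456 values changed sign and 0 were called. The counts over all genes moved as well. KO 24 h against sham called 4351 genes, 1028 with the compared groups alone and 2526 to 6161 with 1 library left out. WT 48 h against sham called 1291, 377 with the compared groups alone, 301 in males alone and 880 to 1292 with 1 library left out. WT 24 h against sham called 144, and 0 without WT 24 h replicate 3 or with the compared groups alone. The average of KO over WT called 423, and 202 to 2029 with 1 library left out. A fit of the compared groups alone was not run for averages, interactions or sex. Depth limits Ciita, with 1 to 7 counts in KO 24 h livers.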
